A study of Mus musculus with 6 samples.

Results

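The collagens are the secreted proteins that give connective tissue its scaffold, and they share a triple helix built from 3 chains. The collagen genes described here are the protein-coding rows of the deposited liver table whose symbol has the form Col, a type number, the letter a and a chain number. This rule uses names alone and no measured value, and it took 44 of the 54532 genes listed. The comparison was between livers of 3 mice lacking *Spns1* after birth (g*Spns1*-cKO) and livers of 3 control mice, with 1 RNA-Seq library per mouse.

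The *Spns1* gene codes for a lysosomal transporter of lysolipids. The g*Spns1*-cKO mice carried 2 floxed *Spns1* alleles and Rosa26Cre-ERT2, a tamoxifen-activated Cre recombinase expressed from the ubiquitous Rosa26 locus, so exon 3 could be deleted in every organ and in every liver cell type. Tamoxifen was given at 50 mg/kg on postnatal days 11, 13 and 15. The controls are called wild type in the labels, and the methods describe floxed littermates without Cre, all on C57BL/6. An effect of Cre on a collagen gene cannot be told apart from that of the deletion, since the controls lack Cre, and neither can one of tamoxifen if the controls went without it, which is not stated. Age at harvest and sex are not stated either, and all 6 libraries held the Y-linked *Ddx3y* (1731 to 2568 counts) with at most 5 counts of *Xist*, as in males. The *Spns1* gene itself was at 35.8, 50.7 and 34.6 CPM (counts relative to a TMM-scaled library of 1e+06) in control livers and at 17.8, 30.6 and 17.7 CPM in g*Spns1*-cKO livers, so that the log2 fold change was -0.87 (SE 0.25, adjusted p = 0.0300, quasi-likelihood test of edgeR, Benjamini-Hochberg correction). These are counts over the whole gene, and do not separate the deleted exon from the rest. Libraries held 30350002 to 35295611 counts. The liver label was checked with hepatocyte markers, and their summed level was at least 62187 CPM in all 6 libraries.

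Fibrillar collagens (types I, II, III, V, XI, XXIV and XXVII) assemble into the banded fibers that stiffen scarred liver. Type IV collagen forms the network of basement membranes, type VI forms beaded filaments around cells, and types XV and XVIII (multiplexins) sit at basement membranes and vessel walls. In liver, stellate cells and portal fibroblasts are the known main sources of the fibrillar and type VI chains, endothelial and stellate cells make much of the type IV, and hepatocytes are known to make type XVIII.

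More collagen genes were higher than lower in g*Spns1*-cKO livers. Of the 44 genes, 29 passed the filter on low counts and were tested. Of these 29, 15 were higher and 3 were lower by the edgeR test (adjusted p under 0.05, corrected over the whole table), and 11 did not pass. The background is high in both directions: 21.3% of all 15449 genes tested were higher, 20.5% were lower and 41.8% moved either way. The median log2 fold change over the 29 genes was 1.01, and it was 0.01 over all genes tested. Of the 29, 13 were both called and at least 2-fold higher, for which the background is 12.6%. In 16 of 29 genes all g*Spns1*-cKO livers lay above all control livers (background 27.1%), and in 6 all lay below (background 27%). Of the 29, 24 passed the filter in all libraries of both groups, 3 (*Col4a6*, *Col8a2* and *Col7a1*) passed through the g*Spns1*-cKO livers and 2 (*Col25a1* and *Col6a6*) through the control livers, so for these 5 passing and direction are linked. In bulk liver, more cells of a type and more RNA per cell cannot be told apart.

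**Figure D1:**
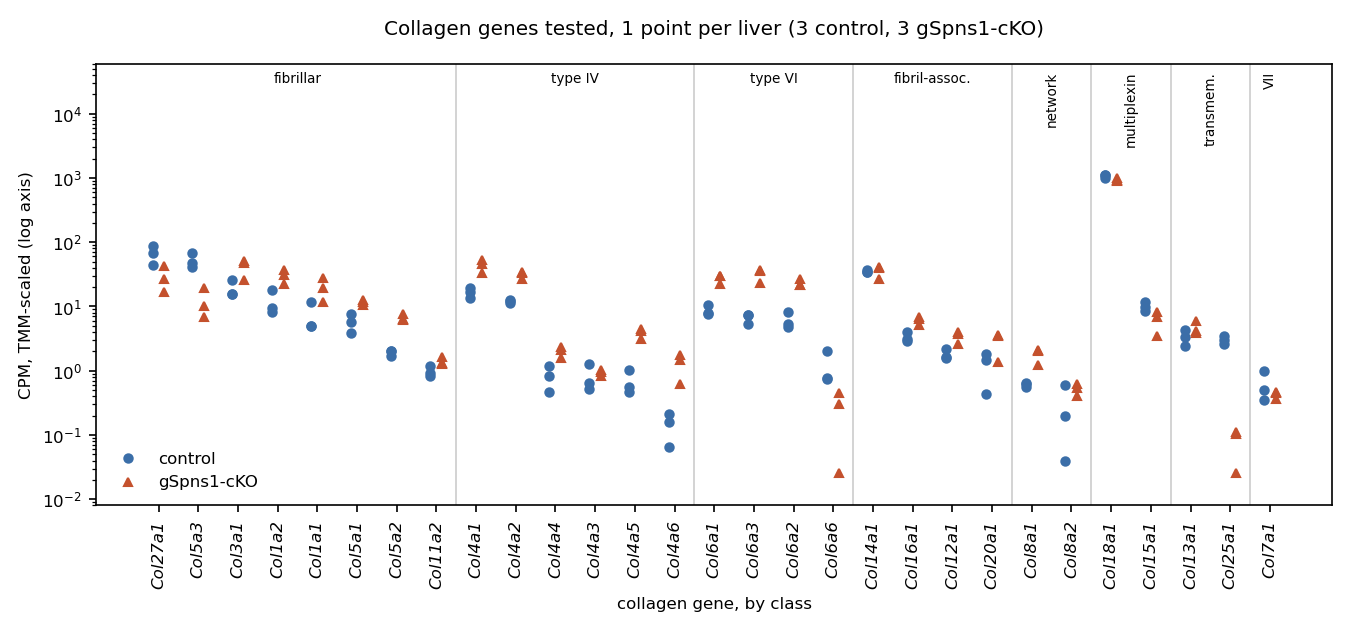
Level of each of the 29 tested collagen genes in CPM (counts relative to the library total times its TMM factor, log axis), 1 point per liver, in order of class. *Col18a1* stands above the rest in all 6 livers, the type IV and VI genes except *Col4a3* and *Col6a6* sit higher in g*Spns1*-cKO livers without overlap, and *Col25a1* sits near 0.1 CPM or under in g*Spns1*-cKO livers.

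The 15 genes not tested were near or at 0. Of these, 5 had no count in any library: *Col2a1*, *Col9a1*, *Col11a1*, *Col19a1* and *Col26a1*, of which the first 3 belong to cartilage collagens. The limit that a count of 0 allows, 3 counts, was 0.0762 to 0.118 CPM by library, and it covers counting error only. The other 10 (*Col6a4*, *Col6a5*, *Col9a2*, *Col9a3*, *Col10a1*, *Col17a1*, *Col22a1*, *Col23a1*, *Col24a1* and *Col28a1*) had at most 14 counts in a library.

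Type IV was the class in which the most genes moved one way. All 6 of its genes were tested, 5 were higher and none was lower, with a median log2 fold change of 1.42. *Col4a6*, among the 5, passed the filter only through the g*Spns1*-cKO livers, so its passing and direction are linked. With at least 10 counts required in every library, 4 of 5 type IV genes were higher, and 4 of 8 fibrillar genes. The 6 genes lie in 3 head-to-head pairs, in which the partners point away from each other and start close together. The sequence between or across the starts is shown for the closest pairs because the partners can be compared for how they moved. *Col4a1* (minus strand) and *Col4a2* (plus strand) on chromosome 8 share 22 bases of their first exons, and *Col4a4* (minus) and *Col4a3* (plus) on chromosome 1 have 71 bases between them. *Col4a6* (minus) and *Col4a5* (plus) on the X chromosome lie 1308 bases apart, and the 250 bases before the RefSeq start of *Col4a6* are shown. Sequences are from GRCm38 (mm10), written 5′ to 3′ on the strand named, with capitals marking GGGCGG or its complement CCGCCC, the core of a GC box.
Col4a1 and Col4a2 overlap, chr8:11312805-11312826, plus strand: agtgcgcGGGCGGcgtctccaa
Col4a4 to Col4a3 gap, chr1:82586850-82586920, minus strand: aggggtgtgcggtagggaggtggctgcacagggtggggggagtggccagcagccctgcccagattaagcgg
Col4a6 upstream, chrX:141474077-141474326, minus strand: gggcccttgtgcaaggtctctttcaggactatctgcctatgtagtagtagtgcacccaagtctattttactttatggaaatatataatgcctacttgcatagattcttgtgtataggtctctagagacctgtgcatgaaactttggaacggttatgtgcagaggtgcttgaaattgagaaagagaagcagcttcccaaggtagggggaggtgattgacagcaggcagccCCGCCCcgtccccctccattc

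*Col4a1* and *Col4a2*, whose chains form the ordinary type IV molecule of most basement membranes, rose together. *Col4a1* was at 13.6, 19.1 and 16.6 CPM in control livers and at 53.7, 33.4 and 45.4 CPM in g*Spns1*-cKO livers, so that the log2 fold change was 1.43 (SE 0.19, adjusted p = 0.000423, edgeR). *Col4a2* was at 11.4, 12.6 and 12 CPM in control and at 33.7, 26.4 and 35 CPM in g*Spns1*-cKO livers, so that the log2 fold change was 1.40 (SE 0.13, adjusted p = 4.47e-05, edgeR). The groups did not overlap in either gene. Per length, the ratio of *Col4a1* to *Col4a2* was 1.06, 1.35 and 1.22 in control and 1.41, 1.12 and 1.15 in g*Spns1*-cKO livers. This ratio does not depend on the scaling between libraries, and its log2 difference of 0.02 was within the spread of both groups (exact permutation test, two-sided, p = 1, where 3 against 3 cannot go below 0.1). The strand setting of the counting is not stated in the sources used here, so reads of the shared exon bases cannot be assigned to 1 of the pair.

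The other type IV genes, which code for the chains of kidney glomerulus and of specialized basement membranes, were scarcer. Per kilobase of gene length (RPKM, the scale on which different genes can be compared) they stood at 0.0182 to 0.101 in control livers, against 2.20 for *Col4a1* and 1.81 for *Col4a2*. *Col4a5* was at 0.462, 0.552 and 1.03 CPM in control and at 3.17, 4.53 and 4.09 CPM in g*Spns1*-cKO livers (log2 fold change 2.54, SE 0.33, adjusted p = 0.000252, edgeR). Its neighbour *Col4a6* had 6, 2 and 4 counts in control and 22, 67 and 58 counts in g*Spns1*-cKO livers (log2 fold change 3.13, SE 0.58, adjusted p = 0.00186, edgeR). Both were without overlap between the groups. The ratio per length of *Col4a5* to *Col4a6* ran from 2.57 to 10.1 in control and from 3.08 to 6.15 in g*Spns1*-cKO livers (log2 difference -0.56, exact permutation p = 0.5), and the few control counts of *Col4a6* set its spread.

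The pair on chromosome 1 gave 1 call. *Col4a4* was at 0.818, 1.17 and 0.474 CPM in control and at 2.08, 2.32 and 1.58 CPM in g*Spns1*-cKO livers (log2 fold change 1.26, SE 0.36, adjusted p = 0.0174, edgeR). The edgeR call is lost without control replicate 3 (adjusted p = 0.0527) or g*Spns1*-cKO replicate 2 (adjusted p = 0.0531). *Col4a3* was at 0.640, 0.519 and 1.26 CPM in control and at 0.944, 1.04 and 0.839 CPM in g*Spns1*-cKO livers, with overlapping groups and a log2 fold change of 0.23 (SE 0.40, adjusted p = 0.673, edgeR). Its reads are uncertain, since a gene with up to 37 counts lies within it on the opposite strand. Whether the partners differed from each other was not tested.

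Type VI genes were mostly higher as well. Of 6 genes 4 were tested, 3 were higher and 1 was lower, beside a background of 21.3% higher and 20.5% lower. *Col6a1*, *Col6a2* and *Col6a3* code for the 3 chains of the usual type VI molecule, and *Col6a1* and *Col6a2* lie 85161 bases apart on chromosome 10. *Col6a1* was at 7.86, 10.7 and 7.58 CPM in control and at 22.2, 30.3 and 29.4 CPM in g*Spns1*-cKO livers (log2 fold change 1.65, SE 0.17, adjusted p = 7.37e-05, edgeR). *Col6a2* was at 5.37, 8.15 and 4.82 CPM in control and at 21.5, 21.4 and 26.5 CPM in g*Spns1*-cKO livers (log2 fold change 1.92, SE 0.20, adjusted p = 7.97e-05, edgeR). In both genes every g*Spns1*-cKO liver was above every control liver.

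*Col6a3*, the long chain of type VI, was at 7.36, 7.37 and 5.37 CPM in control and at 36.4, 23.0 and 35.3 CPM in g*Spns1*-cKO livers. It rose by 2.23 on the log2 scale (SE 0.20, adjusted p = 5.2e-05, edgeR). *Col6a6*, a related chain that can stand in for it, went the other way, with 22, 62 and 19 counts in control and 16, 1 and 12 counts in g*Spns1*-cKO livers (log2 fold change -2.20, SE 0.71, adjusted p = 0.0334, edgeR). The edgeR call of *Col6a6* rests on few counts and is lost without control replicate 2 (adjusted p = 0.139) or g*Spns1*-cKO replicate 3 (adjusted p = 0.0872).

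**Figure D2:**
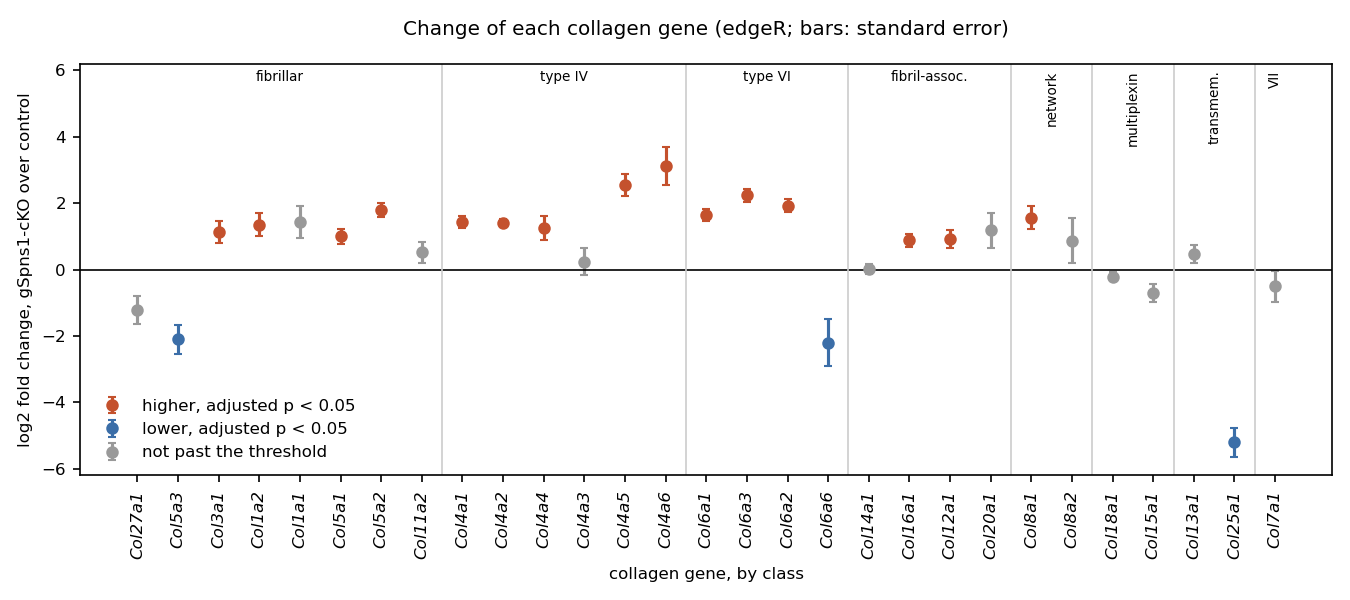
Log2 fold change of each of the 29 tested collagen genes, g*Spns1*-cKO over control, with its standard error as a bar, from edgeR's quasi-likelihood fit to 3 libraries a group. Red marks the 15 genes higher, blue the 3 lower (*Col5a3*, *Col6a6* and *Col25a1*) and gray the 11 not past an adjusted p of 0.05. Type IV and type VI hold 8 of the 15.

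The fibrillar genes did not all move one way. Of 11 listed, 8 were tested, 4 were higher (*Col1a2*, *Col3a1*, *Col5a1* and *Col5a2*), 1 was lower (*Col5a3*) and 3 did not pass, with a median log2 fold change of 1.07. The background is 21.3% higher and 20.5% lower, so 1 lower gene of 8 does not exceed it. The 250 bases before the RefSeq starts of *Col3a1* and *Col5a3* are shown because these are fibrillar genes called in opposite directions. Capitals mark TATAAA in *Col3a1*, and CCAAT and CCGCCC in *Col5a3*.
Col3a1 upstream, chr1:45311288-45311537, plus strand: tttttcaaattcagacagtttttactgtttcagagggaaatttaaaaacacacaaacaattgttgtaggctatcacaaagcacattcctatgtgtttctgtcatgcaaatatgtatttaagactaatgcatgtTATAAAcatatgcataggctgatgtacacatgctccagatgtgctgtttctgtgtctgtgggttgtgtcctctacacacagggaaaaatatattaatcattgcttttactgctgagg
Col5a3 upstream, chr9:20815068-20815317, minus strand: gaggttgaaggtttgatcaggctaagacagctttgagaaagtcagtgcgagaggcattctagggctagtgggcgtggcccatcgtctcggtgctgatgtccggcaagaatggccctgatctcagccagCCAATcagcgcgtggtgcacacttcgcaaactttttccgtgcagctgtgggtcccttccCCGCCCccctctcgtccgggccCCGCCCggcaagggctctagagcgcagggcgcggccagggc

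Types I and III are the collagens that make up most of a liver scar. *Col1a1* was at 5.05, 11.6 and 5.02 CPM in control and at 27.7, 11.7 and 19.4 CPM in g*Spns1*-cKO livers, so that the log2 fold change was 1.43 (SE 0.48, adjusted p = 0.0628, edgeR) that did not pass. The highest control liver, replicate 2, and the lowest g*Spns1*-cKO liver, also numbered 2, nearly met. Without control replicate 2 the adjusted p was 0.0131, and without g*Spns1*-cKO replicate 2 it was 0.0423.

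*Col1a2*, the other chain of type I, was at 9.31, 17.7 and 8.10 CPM in control and at 36.9, 22.0 and 30.8 CPM in g*Spns1*-cKO livers (log2 fold change 1.35, SE 0.35, adjusted p = 0.0244, edgeR). *Col3a1* was at 15.5, 25.7 and 15.7 CPM in control and at 51.4, 25.6 and 47.3 CPM in g*Spns1*-cKO livers (log2 fold change 1.12, SE 0.33, adjusted p = 0.0386, edgeR), with the groups overlapping by replicate 2 of each. Both calls depend on single livers. For *Col1a2* the adjusted p was between 0.0505 and 0.0775, and for *Col3a1* between 0.108 and 0.113, without control replicate 1, control replicate 3, g*Spns1*-cKO replicate 1 or g*Spns1*-cKO replicate 3 in turn.

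The proportions among these 3 genes moved less than their levels. The ratio per length of *Col1a1* to *Col1a2* was 1.03, 1.24 and 1.17 in control and 1.42, 1.00 and 1.19 in g*Spns1*-cKO livers (log2 difference 0.06, exact permutation p = 0.9). That of *Col3a1* to *Col1a1* was 2.05, 1.48 and 2.10 in control and 1.24, 1.47 and 1.63 in g*Spns1*-cKO livers (log2 difference -0.37, exact permutation p = 0.2). With 3 livers a group these tests cannot show that the ratios were equal.

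**Figure D3:**
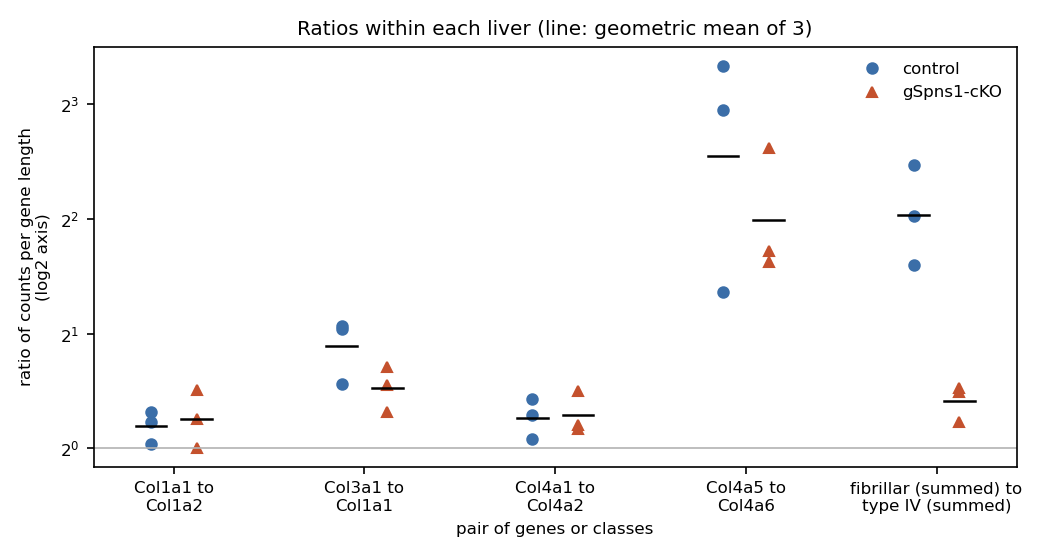
Ratios of counts per gene length within each liver (log2 axis, 1 point per liver, line at the geometric mean of 3), which need no scaling between libraries. The groups overlap for all 4 pairs of genes, while the ratio of summed fibrillar to summed type IV genes lies at 3.02 to 5.55 in control and 1.17 to 1.44 in g*Spns1*-cKO livers.

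Type V collagen sits inside type I fibers and sets their width, and its 3 genes did not move together. *Col5a1* was at 5.79, 7.69 and 3.83 CPM in control and at 12.4, 10.6 and 11.9 CPM in g*Spns1*-cKO livers (log2 fold change 1.01, SE 0.22, adjusted p = 0.0052, edgeR). *Col5a2* was at 2.06, 2.01 and 1.70 CPM in control and at 6.28, 6.12 and 7.62 CPM in g*Spns1*-cKO livers (log2 fold change 1.79, SE 0.20, adjusted p = 0.000109, edgeR). Both were higher without overlap.

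*Col5a3*, the remaining chain, fell by 2.10 on the log2 scale (SE 0.44, adjusted p = 0.0148, edgeR). It was at 68.1, 46.8 and 41.2 CPM in control and at 19.2, 6.93 and 10.3 CPM in g*Spns1*-cKO livers, and per length it ranked 2 among the collagens of control liver and 12 among those of g*Spns1*-cKO liver. Without g*Spns1*-cKO replicate 3 its adjusted p was 0.0691. *Col27a1*, a fibrillar collagen known from cartilage, was at 88.0, 67.2 and 44.9 CPM in control and at 16.7, 26.9 and 42.5 CPM in g*Spns1*-cKO livers (log2 fold change -1.21, SE 0.42, adjusted p = 0.0723, edgeR) and did not pass, although the groups did not overlap. *Col11a2* did not pass either, at 0.829 to 1.17 CPM in control and 1.28 to 1.64 CPM in g*Spns1*-cKO livers (adjusted p = 0.203, edgeR).

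Per length, *Col18a1* outweighed all other collagen genes in every liver. It codes for the type XVIII core protein that releases endostatin. It was at 1078 ± 62.3 CPM in control and 930 ± 50.9 CPM in g*Spns1*-cKO livers (mean ± SD, n = 3), so that the log2 fold change was -0.21 (SE 0.14, adjusted p = 0.245, edgeR) whose sign turns to 0.23 when libraries are scaled by total counts alone. In summed RPKM it held 81.7% ± 2.53 of all collagen in control and 73.2% ± 4.10 in g*Spns1*-cKO livers (mean ± SD, n = 3). The related *Col15a1* was at 8.60 to 11.5 CPM in control and 3.49 to 8.05 CPM in g*Spns1*-cKO livers (log2 fold change -0.71, SE 0.28, adjusted p = 0.0693, edgeR), without overlap. It passed with DESeq2 (adjusted p = 0.032), with limma-voom (0.0499) and when all genes with at least 1 count were tested (0.000741, edgeR), and without g*Spns1*-cKO replicate 1 (0.0186, edgeR), but not under the other alternatives, where the adjusted p reached 0.436 with total counts alone.

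With TMM scaling, the summed level of all collagen genes differed less than its makeup. The TMM factors were 0.834 to 0.873 in control and 1.16 to 1.18 in g*Spns1*-cKO livers. With total counts alone, the g*Spns1*-cKO sums would therefore stand higher beside those of control, while shares and ratios within a liver would not change. Summed over all 44 genes the level was 188 ± 9.34 RPKM in control and 181 ± 2.89 RPKM in g*Spns1*-cKO livers, and without *Col18a1* it was 34.3 ± 4.99 and 48.6 ± 7.58 RPKM (mean ± SD, n = 3). The fibrillar sum was 17.8 ± 4.02 RPKM in control and 15.9 ± 3.97 RPKM in g*Spns1*-cKO livers. Within it types I and III went from 3.98 ± 1.59 to 9.61 ± 3.18 RPKM, and *Col5a3* with *Col27a1* from 12.8 ± 3.69 to 3.99 ± 0.850 RPKM. The type IV sum went from 4.29 ± 0.472 to 11.7 ± 1.81 RPKM and the type VI sum from 3.43 ± 0.760 to 11.7 ± 1.10 RPKM.

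As shares of the total without *Col18a1*, fibrillar genes held 51.5% ± 5.41 in control and 32.3% ± 3.62 in g*Spns1*-cKO livers, type IV 12.7% ± 2.54 and 24.1% ± 0.807, and type VI 9.97% ± 1.37 and 24.4% ± 4.11 (mean ± SD, n = 3). The ratio of fibrillar to type IV sums was 5.55, 4.08 and 3.02 in control and 1.44, 1.17 and 1.41 in g*Spns1*-cKO livers (log2 difference -1.62). These sums describe the family and were not tested. After *Col18a1*, control livers ranked *Col5a3* (7.65 RPKM), *Col27a1* (5.12 RPKM) and *Col14a1* (5.05 RPKM), whose ranges overlap from each to the next. In g*Spns1*-cKO livers the order was *Col6a1* (6.23 RPKM), *Col4a1* (5.92 RPKM), *Col14a1* (5.09 RPKM) and *Col4a2* (4.79 RPKM), again with neighbours that overlap.

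**Figure D4:**
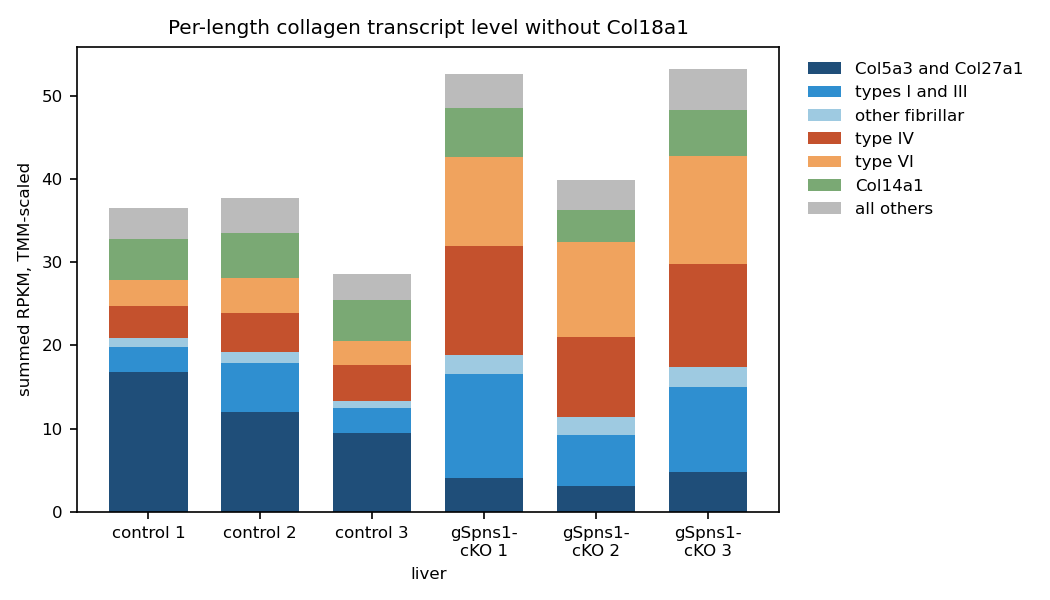
Summed RPKM of the collagen genes other than *Col18a1* in each liver, stacked by class (1 bar per liver, axis from 0). The dark blue part, *Col5a3* with *Col27a1*, is 9.50 to 16.8 RPKM in control and 3.09 to 4.78 RPKM in g*Spns1*-cKO livers, while the red type IV and orange type VI parts are larger in all 3 g*Spns1*-cKO livers.

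Among the fibril-associated collagens, which coat fibers and link them to their surroundings, 4 of 9 were tested and 2 were higher. *Col16a1* was at 2.88, 4.06 and 3.08 CPM in control and at 6.44, 5.16 and 6.81 CPM in g*Spns1*-cKO livers (log2 fold change 0.88, SE 0.21, adjusted p = 0.00726, edgeR). *Col12a1* was at 2.20, 1.66 and 1.58 CPM in control and at 3.69, 2.60 and 4.04 CPM in g*Spns1*-cKO livers (log2 fold change 0.92, SE 0.26, adjusted p = 0.0166, edgeR), a call lost without control replicate 2 (adjusted p = 0.0548), control replicate 3 (0.0577) or g*Spns1*-cKO replicate 3 (0.0814). *Col14a1*, the most abundant of this class, was at 34.3 to 37.4 CPM in control and 26.6 to 41.0 CPM in g*Spns1*-cKO livers (log2 fold change 0.01, SE 0.15, adjusted p = 0.955, edgeR). *Col20a1* did not pass (adjusted p = 0.104, edgeR), and it overlaps a gene on the same strand, so its reads are uncertain.

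The short-chain type VIII forms hexagonal sheets in vessel walls and under endothelium. *Col8a1* was at 0.640, 0.552 and 0.632 CPM in control and at 2.03, 1.22 and 2.13 CPM in g*Spns1*-cKO livers (log2 fold change 1.56, SE 0.34, adjusted p = 0.0049, edgeR). Its partner *Col8a2* ranged from 0.0395 to 0.604 CPM in control and from 0.407 to 0.611 CPM in g*Spns1*-cKO livers and did not pass (adjusted p = 0.32, edgeR). *Col7a1*, the anchoring fibril collagen, overlapped between the groups (adjusted p = 0.412, edgeR).

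The largest change among the 29 tested collagen genes was that of *Col25a1*, a membrane-spanning collagen best known from neurons. It had 85, 81 and 89 counts in control and 4, 4 and 1 counts in g*Spns1*-cKO livers, or 2.63 to 3.52 CPM against 0.0254 to 0.111 CPM. The log2 fold change was -5.20 (SE 0.44, adjusted p = 2.21e-05, edgeR), and it lay between -5.49 and -4.78 with each library left out. *Col13a1*, another membrane collagen, was at 2.45 to 4.30 CPM in control and 3.80 to 5.97 CPM in g*Spns1*-cKO livers and did not pass (adjusted p = 0.174, edgeR). For *Col25a1* the 250 bases before its RefSeq start, which lies inside the longer deposited gene, hold CCAAT once and GGGCGG on either strand, both in capitals.
Col25a1 upstream, chr3:130180595-130180844, plus strand: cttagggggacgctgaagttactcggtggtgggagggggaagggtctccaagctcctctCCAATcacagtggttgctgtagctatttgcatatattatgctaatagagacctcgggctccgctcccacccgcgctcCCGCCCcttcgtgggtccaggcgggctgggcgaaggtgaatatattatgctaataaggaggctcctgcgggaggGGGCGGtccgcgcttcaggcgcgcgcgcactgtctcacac

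Of the 44 genes 35 had at least 1 RefSeq start, with 38 windows of 250 bases before a start in all. Searched on both strands, CCAAT was in 34.2% of these windows and in 33.8% of 32851 windows of all genes, TATAAA was in 13.2% and 12.4%, and GGGCGG was in 57.9% and 32.7%. A match describes the letters and is not a site of binding.

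The 15 higher genes often had the same g*Spns1*-cKO liver lowest. Replicate 2 was the lowest of the 3 in 11 of them, replicate 1 in 3 and replicate 3 in 1. Among the control livers replicate 2 was the highest in 17 of the 29 tested genes and replicate 3 the lowest in 17. Replicate 2 was lowest in *Col1a2* and *Col3a1*, replicate 1 in *Col6a1*, *Col4a5* and *Col4a6*, and replicate 3 in *Col4a4*.

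Genes that fold, modify and export collagen chains inside the cell, or trim and crosslink them outside it, were more often higher than lower. Of 36 such genes 31 were tested, 16 were higher and 6 were lower (median log2 fold change 0.69), beside a background of 21.3% higher and 20.5% lower, so the lower count is near the background. *Serpinh1*, the collagen-specific chaperone Hsp47, was at 12.4, 11.6 and 9.01 CPM in control and at 31.8, 17.0 and 33.6 CPM in g*Spns1*-cKO livers (log2 fold change 1.32, SE 0.26, adjusted p = 0.00582, edgeR). *P3h2*, a prolyl 3-hydroxylase that acts on type IV chains, rose by 1.94, the crosslinking enzyme *Loxl1* by 1.59, the procollagen N-proteinase *Adamts14* by 1.51 and the transcription factor *Creb3l1* by 1.39 on the log2 scale. *Lox* itself had 2, 4 and 0 counts in control and 51, 10 and 29 counts in g*Spns1*-cKO livers and was not tested.

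The lower genes of this list included *P4hb* (protein disulfide isomerase, log2 fold change -0.55, adjusted p = 0.0153, edgeR), *Plod3* (-0.54), *Ppib* (-0.53) and *Plod1* (-0.51). Their fall depends on the scaling: with libraries scaled by total counts alone, which moves the median over all genes tested to 0.457, none of the list was lower. The direction of the 15 higher and 3 lower collagen genes was the same under every scaling tried.

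The receptors that bind collagen at the cell surface were mostly higher, with 7 of 10 tested genes higher and 1 lower (median log2 fold change 1.12). The background is 21.3% higher and 20.5% lower, so the 1 lower gene does not exceed it. *Ddr1*, the discoidin receptor of epithelial cells, was at 1.17, 2.95 and 2.37 CPM in control livers and at 8.67 CPM or more in every g*Spns1*-cKO liver (log2 fold change 2.07, SE 0.28, adjusted p = 0.000391, edgeR). *Ddr2*, its mesenchymal relative, was at 3.87 to 4.34 CPM in control and at 7.50 to 9.61 CPM in g*Spns1*-cKO livers (log2 fold change 1.01, SE 0.17, adjusted p = 0.00127, edgeR). *Lair1*, an inhibitory receptor of leukocytes, rose by 2.03 and *Mrc2*, which takes up collagen for lysosomal breakdown, by 1.91 on the log2 scale. The integrin chain *Itga10* was the lower one (log2 fold change -1.36, adjusted p = 0.00584, edgeR).

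Partners of collagen in the matrix were mostly higher, beside a background of 21.3% higher and 20.5% lower over all genes tested. Of 20 genes for proteins of fibers and filaments 15 were higher and none was lower (median log2 fold change 1.11), among them elastin (*Eln*, 2.97), *Thbs1* (2.67), *Thbs2* (2.40) and fibrillin (*Fbn1*, 1.65). Of 15 basement membrane partners 9 were higher and 2 were lower (median log2 fold change 0.86), a lower count that does not exceed the background. *Nid1*, which links laminin to type IV collagen, was at 8.22 to 10.9 CPM in control and at 37.7 to 45.1 CPM in g*Spns1*-cKO livers (log2 fold change 2.18, SE 0.14, adjusted p = 4.97e-06, edgeR). Of the laminin chains *Lama2* (log2 fold change 1.91) was higher, and *Lama3* (-3.47) and *Lamb3* (-1.55) were lower.

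Genes of collagen breakdown were mostly higher as well. Of 12 tested 7 were higher and 1 was lower (median log2 fold change 1.42). The background is 21.3% higher and 20.5% lower, so the lower count does not exceed it. The macrophage elastase *Mmp12* was at 0.197 to 0.498 CPM in control and 11.4 to 29.3 CPM in g*Spns1*-cKO livers (log2 fold change 5.48, SE 0.55, adjusted p = 0.000531, edgeR), and the gelatinase *Mmp2*, which cuts type IV collagen, rose by 2.67. The inhibitors *Timp3* and *Timp2* rose too, by 1.91 and 1.65 on the log2 scale. *Pepd*, the dipeptidase that recycles proline from collagen, fell by 0.46, about the size of that shift in scaling.

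Marker genes of the cells that make collagen moved in the same livers, beside a background of 21.3% higher and 20.5% lower over all genes tested. The summed level of 12 stellate cell markers was 270.4 to 321 CPM in control and 459 to 467 CPM in g*Spns1*-cKO livers, 1.59-fold, with 10 of 12 higher, *Lrat* at 11.3 to 21.3 CPM against 25.8 to 48.0 CPM. *Ecm1*, which was not called (adjusted p = 0.0721, edgeR), held a mean of 120 of 293 CPM in control and 147 of 464 CPM in g*Spns1*-cKO livers. Of 7 tested portal fibroblast markers 6 were higher (8.61 to 11.5 CPM against 30.5 to 41.7 CPM, 3.52-fold), and of 7 tested myofibroblast markers 4 were higher (14.4 to 16.4 CPM against 45.7 to 49.2 CPM, 3.05-fold). In the myofibroblast sum *Lum* held a mean of 7.96 of 15.5 CPM in control and 23.8 of 47.3 CPM in g*Spns1*-cKO livers. Defining myofibroblast genes were not called, with *Acta2* at 1.15 to 2.27 CPM in control and 1.82 to 5.54 CPM in g*Spns1*-cKO livers (adjusted p = 0.055, edgeR) and *Tagln* at 0.208 to 0.534 CPM in all 6 livers. The called myofibroblast markers *Lum*, *Postn*, *Thbs2* and *Itga11* also stand in the lists of collagen partners and receptors.

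Markers of cells that make basement membrane were higher by less or by more than the type IV sum, which was 2.72-fold in CPM. For the counts of called markers the background is again 21.3% higher and 20.5% lower. Sinusoidal endothelial markers were 1.36-fold (5 of 8 higher), other vascular endothelial markers 1.86-fold (4 of 6 higher) and cholangiocyte markers 3.60-fold (7 of 8 higher). Most of the cholangiocyte sum was *Spp1*, at a mean of 44.6 of 66.8 CPM in control and 195 of 241 CPM in g*Spns1*-cKO livers. The summed cholangiocyte fold therefore rests mainly on 1 gene and is not a level of the whole list. Gene by gene, the log2 fold changes of the 8 cholangiocyte markers ran from 0.18 to 3.11, with a median of 2.12. Macrophage markers were 3.60-fold with 8 of 8 higher, and mesothelial markers 2.11-fold with 2 of 5 tested higher. The hepatocyte sum was 105378 to 121146 CPM in control and 62187 to 71095 CPM in g*Spns1*-cKO livers, 0.608-fold, with 5 of 8 lower. Most of this sum was *Alb*, at a mean of 69312 of 111461 CPM in control and 41847 of 67762 CPM in g*Spns1*-cKO livers. Of chondrocyte markers only *Sox9*, also a cholangiocyte gene, was tested, and *Acan*, *Matn1* and *Matn3* were at 0 in all libraries. The part of these cell types in the collagen results was not tested.

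**Figure D5:**
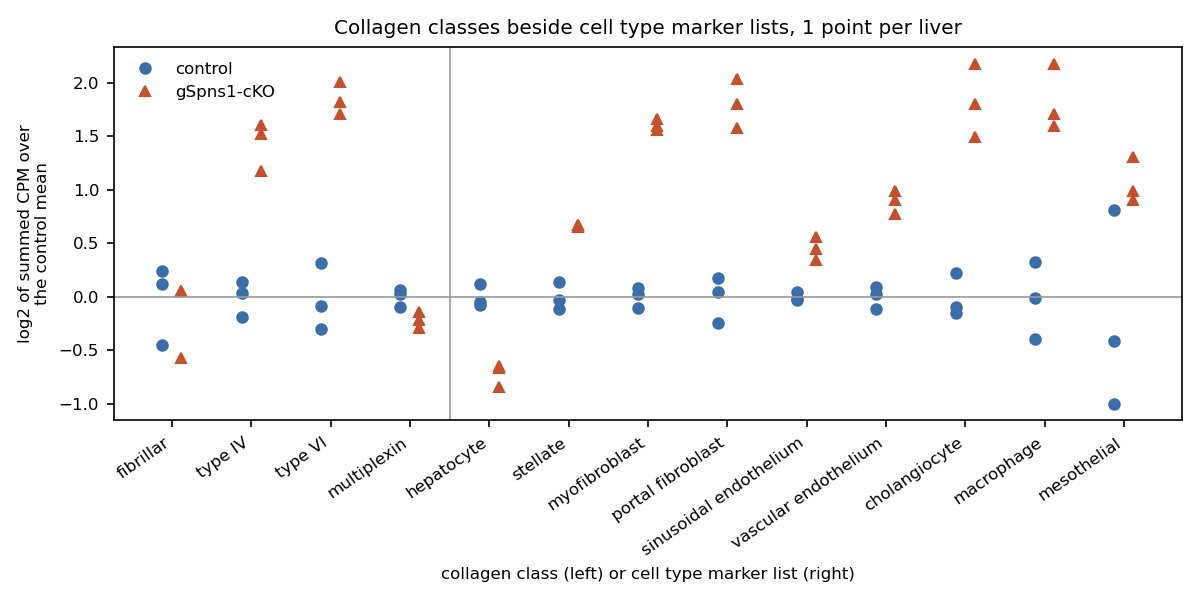
Log2 of the summed CPM of 4 collagen classes (left of the line) and 9 cell type marker lists (right), relative to the mean of the control livers, 1 point per liver. Type IV and type VI sums lie above all control livers in each g*Spns1*-cKO liver, the fibrillar sum overlaps, and hepatocyte markers lie below while stellate, portal fibroblast, cholangiocyte and macrophage markers lie above.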

How the data were processed

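RNA-Seq was done on poly(A)-selected liver RNA of 6 mice, 3 g*Spns1*-cKO and 3 control, grouped by the sample labels. The authors deposited 1 table for mm10 with whole-number counts per gene and library, not normalized. The submitters' processing notes name fastp, HISAT2 2.0.5 and featureCounts 1.5.0-p3, and the strand setting of the counting is not given in the sources used here. FPKM values in the deposited table, in which the authors divided counts by gene length and a library total, served only as an alternative for the ratios. The authors' own comparison columns, a normalized signal per group, a log2 fold change and a p-value with its adjusted form, were not used.

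Counts were tested over the whole table with edgeR 4.0.16 (R 4.3.3) by quasi-likelihood, with TMM scaling, a filter on low counts (about 0.307 CPM in 3 libraries) and Benjamini-Hochberg correction at 0.05. The SE is that of the fitted log2 fold change. CPM and RPKM were computed from the counts with TMM-scaled library sizes and the deposited gene lengths. Ratios within a library were compared by exact two-sided permutation tests. Labels name separate livers, so p-values measure the spread between these mice. Count noise at the depth of 30350002 to 35295611 counts was smaller than that spread, since no replicate pair agreed within sampling noise.

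The collagen genes and all lists were chosen with earlier results of these data known. Values in every library are given for collagens past the threshold and for types I, III, IV, V and VI, and of each pathway list the 4 called genes with the largest change in a direction and a mean of at least 1 CPM are named, with *Serpinh1*, *Ddr1* and *Ddr2*. *Lox* and markers named beyond this rule were chosen after their values were seen, and 1 gene that the rule names is not reported here. Gene coordinates were equal to GENCODE M21 for 44 of 44 collagens, and promoter windows are from RefSeq on GRCm38.p6. The edgeR fit was tested on simulated counts with known fold changes. Alternatives were DESeq2 1.42.0, limma 3.58.1 (voom), other scalings, filters and thresholds, a replicate block, and leaving out each library.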

Additional observations from a re-analysis of the deposited data

How the results depend on the processing

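Each result was recomputed under DESeq2, limma-voom, 3 other scalings, 2 other filters, protein-coding genes only, a replicate block, an adjusted p under 0.01 and without each library in turn. The scaling mattered most: with total counts alone the median over all genes (log2) moved to 0.457 and the share of higher genes among calls to 88.3%, and with upper-quartile factors to 0.143 and 64.7%, against 0.0138 and 50.9%. Total counts alone moved the collagen median to 1.44, left 0 synthesis genes lower, turned *Col18a1* to 0.23 and took *Spns1* to -0.43 (adjusted p = 0.213, edgeR). With upper-quartile factors *Spns1* was at -0.74 (adjusted p = 0.0635, edgeR), and its -0.87 does not pass 0.01. Lower collagen genes numbered 5 with DESeq2 and 1 with at least 10 counts in every library or at an adjusted p under 0.01, where 2 fibrillar genes were higher and 2 synthesis genes lower. *Col14a1*, near 0, turned to -0.013 with limma-voom. *Col3a1* lost its call with at least 1 count in any library (adjusted p = 0.0736, edgeR) and *Col6a6* with total counts alone (0.0606). DESeq2 also called *Col1a1* (adjusted p = 0.0211) and *Col20a1* (0.0392) higher and *Col27a1* (3e-04) and *Col15a1* (0.032) lower. In edgeR *Col1a1* also passed with total counts alone (adjusted p = 0.023) and upper-quartile factors (0.048). *Col20a1* passed with total counts alone (0.0331, edgeR) and with at least 1 count in any library (0.00159, edgeR). Total counts alone called 20 collagen genes higher, among them *Col14a1* (0.0285, edgeR), *Col13a1* (0.0156) and *Col11a2* (0.0253).

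The replicate block left 2 fibrillar genes higher and turned *Col14a1* to -0.010. With the block *Col3a1* (adjusted p = 0.134, edgeR), *Col1a2* (0.0682) and *Col6a6* (0.0939) lost their calls, and over all genes 3084 were higher and 3016 lower. Same-numbered livers correlated at 0.0421, 0.0317 and -0.0266, and not every liver correlated best with its own number. The labels state no pairing, and a shared litter or processing day was not tested.

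Without each library in turn, 2 to 5 fibrillar genes were higher (2 without control 1, control 3, g*Spns1*-cKO 1 or g*Spns1*-cKO 3), 3 to 8 synthesis genes were lower (3 without g*Spns1*-cKO 3) and the collagen median was 0.784 (without control 3) to 1.15. *Spns1* ran from -1.18 to -0.68, past 0.05 in 3 of 6 fits. *Col14a1* ran from -0.10 to 0.19, *Col4a3* from -0.016 to 0.69 and *Col7a1* from -0.78 to 0.0042. *Col4a1*, *Col4a2*, *Col4a5*, *Col4a6*, *Col6a1*, *Col6a2*, *Col6a3*, *Col5a1*, *Col5a2*, *Col8a1*, *Col16a1* and *Col25a1* passed in 6 of 6. The cause was not tested.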
